A study of Mus musculus with 4 samples.

Results

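This report describes 46 mouse genes that encode nuclear receptors, out of 21887 protein-coding genes in a RefSeq table of GRCm38.p6, which shares its chromosome coordinates with mm10. The genes were taken by name. Every row of the deposited H3K27ac peak lists that shared at least 1 bp with a receptor gene or the 10 kb on either side of it, its neighbourhood, was kept. This gave 53 of the 13130 peaks in the Cre list and 58 of the 12873 peaks in the GFP list. H3K27ac is the acetylation of histone H3 at lysine 27 that is found at active promoters and enhancers. Chromatin immunoprecipitation with sequencing measured it in chondrocytes of C57Bl/6 mice, with 1 library for each culture. The Cre library came from primary chondrocytes kept ex vivo in micromass culture, a dense drop of cells that lays down cartilage matrix, labelled hdac3-knockout and transduced with a Cre-recombinase adenovirus. The GFP library came from chondrocytes labelled wild-type that received the GFP control adenovirus. The labels do not give the Hdac3 allele, the share of cells that were transduced, the age of the mice or the number of animals. Hdac3 itself had 0 peaks within 10 kb in either list, so the lists cannot check its deletion. With 1 library in each condition, every difference given here is a difference between 2 libraries, without a replicate check or a test. Fewer cells carrying a mark and less of the mark in each cell cannot be told apart in bulk chromatin.

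Nuclear receptors are transcription factors that bind DNA as monomers, homodimers or heterodimers with a retinoid X receptor, and many change activity when a lipid-soluble ligand enters their binding pocket. Without ligand, or constitutively in the case of the REV-ERB proteins, several of them recruit the NCoR and SMRT corepressors, which bind the histone deacetylase HDAC3 and switch it on. In cartilage, thyroid hormone, retinoic acid, glucocorticoids, oestrogen and vitamin D act through this family on growth plate chondrocytes. Not every member is a known HDAC3 partner, and the peak lists measure acetylation at the receptor genes, not binding of the receptors or of HDAC3.

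A called peak reached into the RefSeq promoter window, 250 bases before to 50 bases after the start, of 3 among 42 receptors that have one (7.14%, exact 95% interval 1.498 to 19.5), near the 5.87% of all 27025 genes with a window. The 3 were Nr6a1, Rara and Rxrb. A window of each is shown because a peak touched it, and Nr1d1 is shown beside them, chosen after its values were seen, because GFP peaks stood on both sides of its window. All are RefSeq sequences of GRCm38.p6, printed 5′ to 3′ on the strand of the gene, and capitals mark the bases inside a called peak of either list.
Nr6a1 (chr2:38926412-38926711, minus strand): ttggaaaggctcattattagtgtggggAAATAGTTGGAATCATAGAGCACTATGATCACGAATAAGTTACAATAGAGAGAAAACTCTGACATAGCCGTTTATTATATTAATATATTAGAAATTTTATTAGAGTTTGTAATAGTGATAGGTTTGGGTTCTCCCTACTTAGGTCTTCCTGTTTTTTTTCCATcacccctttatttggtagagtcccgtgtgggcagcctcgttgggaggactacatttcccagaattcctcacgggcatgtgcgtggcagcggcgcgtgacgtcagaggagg
Rara (chr11:98937446-98937745, plus strand): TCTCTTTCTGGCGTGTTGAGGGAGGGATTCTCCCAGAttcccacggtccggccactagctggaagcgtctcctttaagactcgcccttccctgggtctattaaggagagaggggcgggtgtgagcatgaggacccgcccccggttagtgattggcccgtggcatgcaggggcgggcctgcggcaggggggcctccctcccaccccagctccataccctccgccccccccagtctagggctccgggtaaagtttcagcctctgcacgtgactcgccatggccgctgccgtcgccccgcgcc
Rxrb (chr17:34031562-34031861, plus strand): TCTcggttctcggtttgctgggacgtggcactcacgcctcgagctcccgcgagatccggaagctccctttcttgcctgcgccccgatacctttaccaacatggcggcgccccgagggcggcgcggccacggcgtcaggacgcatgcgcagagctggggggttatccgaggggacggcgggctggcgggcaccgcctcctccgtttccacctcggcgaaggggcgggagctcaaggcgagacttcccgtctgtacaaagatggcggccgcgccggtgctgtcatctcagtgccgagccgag
Nr1d1 (chr11:98775328-98775627, minus strand): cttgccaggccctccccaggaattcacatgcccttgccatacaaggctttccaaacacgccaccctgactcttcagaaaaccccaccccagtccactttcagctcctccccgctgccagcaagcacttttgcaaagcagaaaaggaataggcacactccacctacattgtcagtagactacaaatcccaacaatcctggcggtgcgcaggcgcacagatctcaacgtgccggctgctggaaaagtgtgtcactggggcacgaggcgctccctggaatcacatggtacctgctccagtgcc

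In the Nr6a1 window 163 bases lay inside a peak, from position -223 to -61 relative to the start, and the GFP peak (150 bases) fell wholly within the Cre peak (163 bases). At Rara 37 bases and at Rxrb 3 bases at the far edge of the window were covered, by a GFP peak in each case. Rara has a further window that overlaps the printed one (chr11:98937468-98937767), and the same GFP peak covered 15 of its bases. Of the letters searched on both strands, AGGTCA, the core half-site of nuclear receptors, was in none of the 4 windows, and 16.3% of all 32851 RefSeq promoter windows hold it. GGGCGG, the box bound by Sp1-type factors, occurred 4 times at Rara and 2 times at Rxrb, against 35.7% of all windows with at least 1 match. Rara also held 1 CCAAT, found in 37.4% of all windows, and 1 CACGTG, the E-box bound by the clock factors CLOCK and BMAL1 among others, found in 7.15%. TGACTCA, the AP-1 site, was in none of the 4, and 5.20% of all windows hold it. The share of C and G was 42.3% at Nr6a1, 66.3% at Rara, 68.7% at Rxrb and 56.3% at Nr1d1, beside a median of 52.7% over all windows.

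Of the 46 receptors, 19 had a peak in their neighbourhood in at least 1 list, which is 41.3% (exact 95% interval 26.997 to 56.8), beside 32.4% of all protein-coding genes. The Cre list marked 16 receptors and the GFP list 15, against 26.0% of all genes in each list. Peaks in both lists were found at 12 receptors (26.1%, 14.3 to 41.1), against 19.7% of all genes. Cre peaks alone were found at 4 (8.70%), against 6.31% of all genes, and GFP peaks alone at 3 (6.52%), against 6.38%. These shares were near the background, whose values lay within the receptors' intervals. Receptor genes were longer than most, with a median of 48409 bp against 17169 bp. Among genes under 20 kb, 6 of 13 receptors had a peak, against 27.5% of all genes of that length. The counts were 9 of 20 between 20 and 100 kb, against 38.1%, and 4 of 13 at 100 kb or more, against 37.8%.

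A peak within 1 kb of an annotated gene end was found at 9 receptors (19.6%, 9.36 to 33.9), against 18.3% of all genes. By list, 7 had one in the Cre library, where 13.5% of all genes did, and 8 in the GFP library, where 14.0% did. Rarg, Rxrb, Nr1d1, Nr1d2, Nr1h3 and Nr6a1 had gene-end peaks in both lists, 13.0% of receptors against 9.26% of all genes. Rara had one in the Cre list alone, against 4.28% of all genes, and Rxra and Esr1 in the GFP list alone, against 4.77%. The other 10 marked receptors carried their peaks inside the gene or in the flanks.

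**Figure D1:**
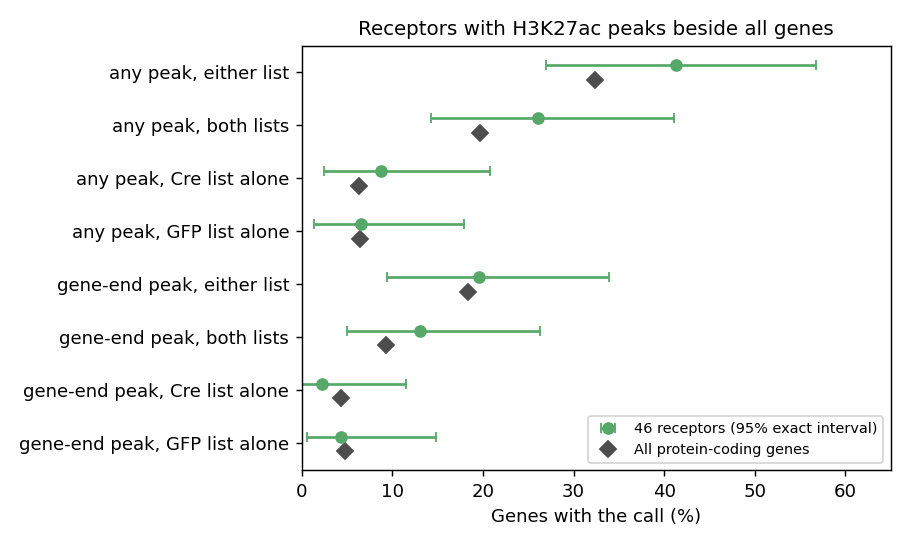
Share of genes, in percent on the horizontal axis, with each kind of peak call: green circles are the 46 receptors with exact 95% intervals, dark diamonds all protein-coding genes. For the 8 kinds of call plotted, each diamond lies within the interval of the receptors, for example 32.4% against 41.3% for any peak in either list.

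Marked receptors had a median of 3 Cre and 2 GFP peaks, against 1 and 1 over all marked genes. With 5 or more peaks over both lists together there were 9 of all 46 receptors (19.6%, 9.36 to 33.9), against 9.13% of all genes, just below that interval. Of marked genes alone these were 9 of 19 receptors, against 1999 of 7081 genes. The limit of 5 peaks was chosen after the values were seen. In order of covered length, the 9 receptors were Rarg, Thra, Nr1d1, Rxrb, Rora, Nr1d2, Rxra, Rara and Esrra. Thra and Nr1d1 share peaks. The receptor was the nearest protein-coding gene for no peak at Esrra and only for 2 GFP peaks at Rxrb. The greater length of receptor genes was not allowed for in this count. Cover was longer in the Cre library at 9 receptors (19.6%), against 15.9% of all genes, and longer in the GFP library at 10 (21.7%), against 16.4%. It was at least 2 times greater in the Cre library at 6 receptors, against 9.22% of genes, and at least 2 times greater in the GFP library at 6, against 9.39%. Over all receptors the peaks covered 11180 bp in the Cre library, against 14180 bp in the GFP library, a Cre share of 44.1%. The whole lists covered nearly equal lengths, 3264813 bp (Cre) and 3236648 bp (GFP). By number of peaks the Cre share was 47.7% (38.2 to 57.4), an interval that takes in an even split. Among the marked receptors the median Cre share of covered length was 47.4%, beside 49.6% over all 7081 marked genes. Without Thra, Nr1d1 and Rarg the Cre share of covered length was 55.4%. These 3 genes had the largest differences toward GFP and were chosen after the values were seen, so the direction of that move was fixed by the choice. Without Rora, which had the largest difference toward Cre, the share was 41.2%.

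**Figure D2:**
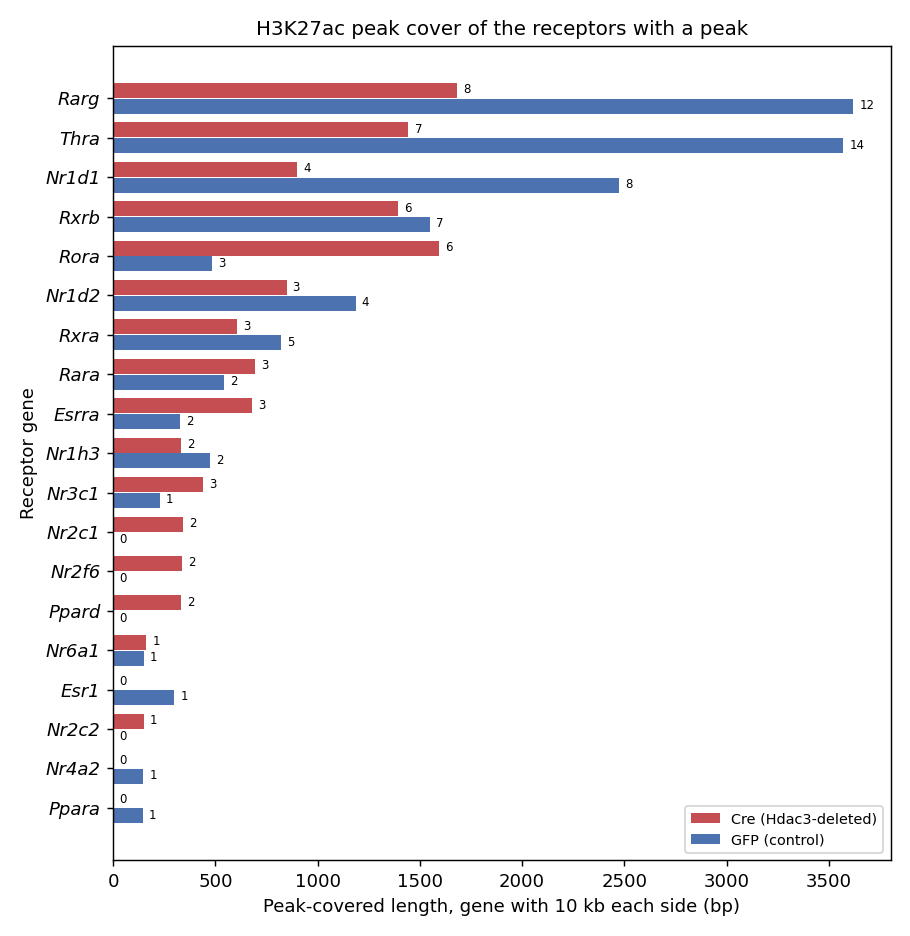
Peak-covered length in bp for the 19 receptors with a peak, Cre bars above GFP bars, with the number of peaks beside each bar. Rarg, Thra and Nr1d1 have the longest GFP bars (3621, 3571 and 2473 bp), Rora has a longer Cre bar (1592 bp against 483 bp), and 7 receptors have a bar in 1 library only.

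Nr1d1 and Thra lie tail to tail on chromosome 11 and overlap at their ends, so their neighbourhoods share peaks. Nr1d1 (98767932 to 98775377) encodes REV-ERBα, a heme-binding repressor of the circadian clock that acts through NCoR and HDAC3. Thra (98740776 to 98769006) encodes the thyroid hormone receptor TRα, the form that predominates in bone and cartilage. Over both genes with their flanks there were 8 Cre peaks covering 1592 bp and 16 GFP peaks covering 4204 bp.

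Inside Nr1d1 and up to its start, peaks of both libraries followed each other closely. The highest there was a GFP peak 1981 bp into the gene, with 23 fragments at its summit (exact Poisson 95% interval 14.6 to 34.5). The Cre peak that overlapped it had 11 fragments (5.49 to 19.7), and these intervals overlap. Here and below, the number of fragments at a summit (the pileup) was worked out from the authors' fold and p-value, and its interval covers counting error only. The fold, as the authors' caller gave it within its own list, was 4.69 for the Cre peak and 10.2 for the GFP peak. Nearer to the start, 2 Cre peaks with 11 and 8 fragments overlapped 2 GFP peaks with 13 and 11 fragments. Just upstream of the start the lists parted. The GFP list had a peak from 98775652 to 98775951, its summit 413 bp before the start, with 22 fragments (13.8 to 33.3). Its fold was 11.8, rank 267 of 12873 in its list. No Cre peak overlapped it, and the nearest Cre peak was 624 bp away. This GFP peak stands just upstream of the Nr1d1 window printed above, in which no base was inside a peak. Other GFP peaks without an overlapping Cre peak had summits 1506 and 8470 bp before the start, with 10 and 15 fragments. Farther upstream a Cre peak (13 fragments) and a GFP peak (11 fragments) overlapped, with summits 9868 and 9671 bp before the start. Both were nearer to Msl1.

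Thra itself, outside the overlap with Nr1d1, carried 4 Cre peaks covering 692 bp and 8 GFP peaks covering 1731 bp. No Thra peak inside that stretch overlapped a peak of the other library. The Cre summits had 7 to 11 fragments and the GFP summits 8 to 15. The nearest pair of Cre and GFP peaks was 90 bp apart, so the libraries marked the same stretch of the gene with different intervals. Neither library had a Thra peak within 1 kb of an annotated end of the gene. The difference in covered length, Cre minus GFP, was -2127 bp at Thra and -1573 bp at Nr1d1. Among 7081 marked genes, 0.480% lay at least as far toward GFP as Thra and 0.960% at least as far as Nr1d1. Only genes with long cover can reach such differences in bp, and marked genes had median cover of 274 bp (Cre) and 288 bp (GFP). By ratio a lean was common. Cover was at least 2 times greater in the GFP library at 2056 of the 7081 marked genes and in the Cre library at 2019. The values of the 2 genes share peaks and are not separate observations.

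Rarg (chromosome 15, 102234938 to 102257522) encodes the retinoic acid receptor RARγ, the main retinoic acid receptor of growth plate cartilage. It had the longest cover of all receptors, 8 Cre peaks over 1684 bp and 12 GFP peaks over 3621 bp, and all were nearest to Rarg among protein-coding genes. In both libraries the peaks ran along the gene body, 7 Cre peaks and 8 GFP peaks. At 3 points inside the gene the lists overlapped, the highest with 10 fragments in the Cre library, against 16 in the GFP library. Around the RefSeq start at 102257522 the lists differed again. The Cre list had 1 gene-end peak, 622 bp into the gene with 11 fragments. The GFP list had 3, of which the highest lay 1063 bp before the start with 18 fragments (10.7 to 28.4) and a fold of 9.75. Rarg has a further RefSeq start inside the gene, at 102246500. The nearest Cre summit lay 707 bp after that start and the nearest GFP summit 1302 bp after it, each with 10 fragments. Of all marked genes, 0.621% lay at least as far toward GFP in covered length as Rarg, a difference in bp that only genes with long cover can reach.

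Rara (chromosome 11, 98927800 to 98974942), encoding RARα, had 3 Cre peaks over 692 bp and 2 GFP peaks over 541 bp, and none overlapped. Its gene-end peak was in the Cre list, 363 bp below the lower annotated end (fold 7.47, 14 fragments) and 10259 bp upstream of the nearest RefSeq start. The GFP list instead had a peak next to that start, its summit 293 bp upstream with 11 fragments. Rarb, the third retinoic acid receptor gene and itself a retinoic acid target, had no peak in either list.

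The retinoid X receptors are the shared heterodimer partners of the thyroid, retinoic acid, vitamin D, oxysterol and fatty acid receptors. Rxra (chromosome 2, 27676445 to 27763319) had 3 Cre peaks over 606 bp and 5 GFP peaks over 821 bp. A single pair overlapped, with summits 1184 and 1285 bp after a RefSeq start and 10 fragments in the Cre library, against 9 in the GFP library. At the lower gene end only the GFP list had a peak, with 10 fragments. Rxrg, the member found mainly in muscle and brain, had none.

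Rxrb (chromosome 17, 34031812 to 34038403) had 6 Cre peaks over 1394 bp and 7 GFP peaks over 1550 bp. For most of them the nearest protein-coding gene was a neighbour. Slc39a7, a zinc transporter gene, has its upper annotated end just before the Rxrb start. Col11a2, a cartilage fibrillar collagen gene, has its lower annotated end just after the Rxrb end. The peak nearest to the Rxrb start was shared, with 15 fragments in the Cre library (fold 7.97) and 18 in the GFP library (fold 9.75). Both summits lay inside Slc39a7, 444 bp (Cre) and 373 bp (GFP) before the Rxrb start. Position alone does not assign this peak to either gene. A weaker Cre peak with 8 fragments also lay inside Slc39a7. Of the remaining peaks, 4 Cre and 4 GFP peaks had their summits inside Col11a2, with 11 to 13 Cre fragments and 9 to 16 GFP fragments. Inside Rxrb itself there were 2 GFP peaks near the 3′ end, with 8 and 10 fragments, and no Cre peak.

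**Figure D3:**
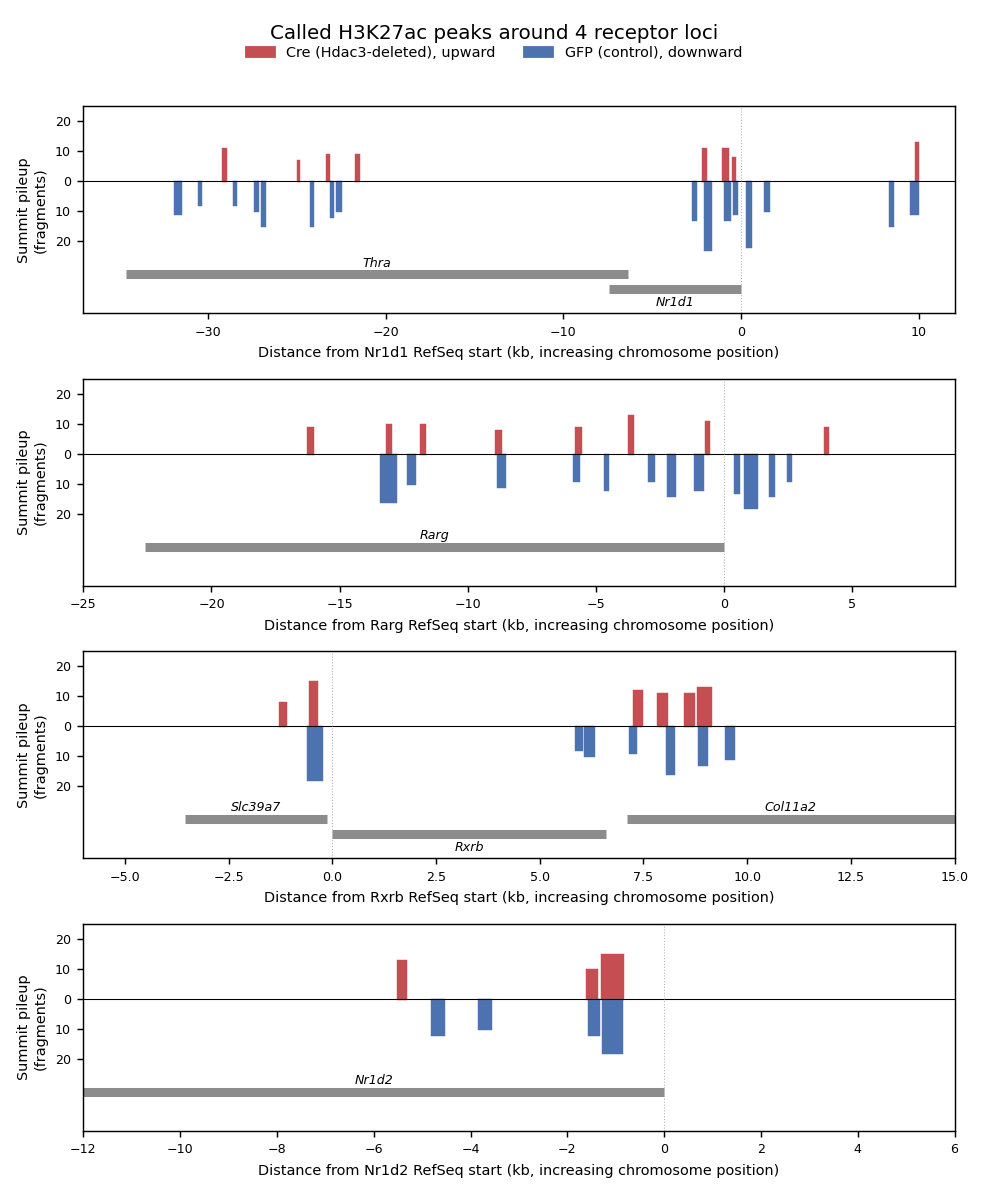
Called peaks around Nr1d1 and Thra, Rarg, Rxrb and Nr1d2, with distance from the named RefSeq start in kb on the horizontal axis and fragments at the summit on the vertical axis, Cre bars upward, GFP bars downward and gene bodies in grey. The GFP bars just beyond the starts of Nr1d1 (22 fragments) and Rarg (18 fragments) have no Cre bar opposite, while the Nr1d2 peak near the start stands in both libraries (15 and 18 fragments).

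Nr1d2 (chromosome 14, 18204056 to 18239106), encoding REV-ERBβ, had 3 Cre peaks over 848 bp and 4 GFP peaks over 1186 bp. In each list 2 of them overlapped a peak of the other list. Its gene-end peak was 441 bp wide with 15 fragments and a fold of 7.97 in the Cre library, against 413 bp, 18 fragments and a fold of 8.59 in the GFP library, and the peaks overlapped over 413 bp. The intervals of these pileups, 8.40 to 24.7 for Cre and 10.7 to 28.4 for GFP, overlap over most of their length.

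Rora (chromosome 9, 68653404 to 69388246) encodes RORα, an activator that competes with the REV-ERB proteins for the same DNA elements. It leaned the other way, with 6 Cre peaks over 1592 bp and 3 GFP peaks over 483 bp. A cluster of 3 Cre and 2 GFP peaks stood inside the gene, with summits 127859 to 128912 bp below its upper end, and 1 pair overlapped. The Cre summits there had 16, 11 and 12 fragments and both GFP summits 9. Another site was marked in the Cre list alone, a peak of 606 bp from 69338504 to 69339109 with 19 fragments (11.4 to 29.7) and a fold of 9.96, rank 466 of 13130, with a smaller Cre peak of 11 fragments beside it. The nearest GFP peak was 37452 bp away and had 9 fragments. The sixth Cre peak lay inside Ice2, the next gene. Of all marked genes, 1.84% lay at least as far toward Cre as Rora, again by a difference in bp that only genes with long cover can reach. The single RefSeq start given for Rora is at least 605548 bp from these summits. Rorb, a neural relative, had no peak.

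Of 9 receptors of lipids, vitamin D and xenobiotics, 3 had a peak in either list (33.3%, 7.49 to 70.1), near the 32.4% of all genes. Nr1h3, encoding the oxysterol receptor LXRα, had gene-end peaks in both lists, with 11 fragments in the Cre library, against 13 and 11 in the GFP library. They stood at the upper annotated end, which Acp2, a lysosomal phosphatase gene, overlaps, and 6895 to 7474 bp upstream of the nearest RefSeq start of Nr1h3. A further Cre peak lay inside Acp2. Ppard, encoding the fatty acid receptor PPARδ, had 2 Cre peaks with 8 and 12 fragments, and the nearest GFP peak to either was 73283 bp away. Ppara, encoding PPARα, had 1 GFP peak with 13 fragments, which was nearer to Cdpf1. Pparg, the adipocyte regulator, Nr1h2, Nr1h4, Vdr, the vitamin D receptor gene, Nr1i2 and Nr1i3 had no peak in either list.

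Of 25 orphan and steroid receptors, 8 had a peak in either list (32.0%, 14.9 to 53.5), again near the 32.4% of all genes, and none but Nr6a1 had more than 15 fragments at a summit. Nr6a1, encoding germ cell nuclear factor, a repressor of pluripotency genes, had the highest receptor peak of the Cre library. It was the promoter peak shown above, with 28 fragments (18.6 to 40.5), a fold of 14.2 and rank 72 of 13130 in the Cre library, and 19 fragments (11.4 to 29.7) and a fold of 6.99 in the GFP library. The expected pileup behind these folds was 1.04 in the Cre library, against 1.86 in the GFP library, so the folds differ by more than the fragment numbers do, and the intervals of the fragment numbers overlap. Nr2c1 and Nr2c2, encoding the testicular orphan receptors TR2 and TR4, had Cre peaks near their starts, 733 and 214 bp inside, with 11 and 10 fragments, and no GFP peak. Both of these peaks lay just over 1 kb from the annotated gene end and so did not count as gene-end peaks. A further Cre peak counted with Nr2c1 was nearer to Ndufa12, and both Cre peaks counted with Nr2f6, which encodes the orphan receptor EAR2, were nearer to Use1.

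Esrra, encoding the oestrogen-related receptor ERRα, a regulator of mitochondrial genes, had 3 Cre and 2 GFP peaks in its flank, of which 2 pairs overlapped. All of them lay at Prdx5 and Trmt112, a peroxiredoxin gene and a methyltransferase cofactor gene that share a gene end next to it. Esr1, the oestrogen receptor α gene, had 1 GFP peak of 300 bp, 597 bp after its start, with 9 fragments (4.12 to 17.1) and a fold of 5.13. The nearest Cre peak was 178967 bp away. Nr3c1, the glucocorticoid receptor gene, had 3 Cre peaks with 12 to 14 fragments and 1 GFP peak with 9, all inside the gene and 26605 bp apart at the nearest. Nr4a2, an immediate-early receptor gene, had 1 GFP peak with 12 fragments.

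No peak in either list was found at 27 receptors (58.7% against 67.6% of all genes). Besides those named above these were Thrb, Hnf4a, Hnf4g, Nr2e1, Nr2e3, Nr2f1, Nr2f2, Esr2, Esrrb, Esrrg, Nr3c2, Pgr, Nr4a1, Nr4a3, Nr5a1, Nr5a2, Nr0b1 and Nr0b2. Several of these genes, such as the hepatic HNF4 receptors, the retinal Nr2e3 and the adrenal and gonadal Nr5a1, are known for other tissues. Also without a peak were Vdr and Thrb, receptors of vitamin D and thyroid hormone, which act on growth plate chondrocytes. Why a receptor had no peak was not tested. The lowest pileup of any called peak was 7 fragments in either library, so weaker acetylation would not appear in these lists.

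Receptor peaks were close to the rest of their lists in width and somewhat lower in fold. Their median width was 192 bp (Cre) and 211 bp (GFP), where the whole lists had 194 and 198 bp. Their median pileup was 11 fragments in both libraries, against 12 in both whole lists, and their median fold was 5.48 (Cre) and 5.64 (GFP), where the whole lists had 5.98 and 6.16. A fold above the median of the own list was found for 15 of 53 Cre peaks (28.3%) and 21 of 58 GFP peaks (36.2%), against 44.6% and 43.4% of the whole lists, in which many peaks tie at the median. Of the Cre peaks 19 (35.8%, 23.1 to 50.2) overlapped a GFP peak, against 40.7% of the whole list, and of the GFP peaks 19 (32.8%, 21.0 to 46.3) overlapped a Cre peak, against 41.4%.

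By position, counting a peak once for each gene it neighbours, 9 of 56 Cre peaks (16.1%) and 16 of 64 GFP peaks (25%) at receptors stood at a gene end, against 27.7% and 28.5% over all protein-coding genes. Inside the gene were 53.6% (Cre) and 48.4% (GFP), against 45.0% and 44.3%, and in the flanks 30.4% and 26.6%, against 27.3% and 27.1%. The receptor was itself the nearest protein-coding gene for 38 Cre peaks (67.9%) and 48 GFP peaks (75.0%), against 70.9% and 71.0%. Where the RefSeq table gave a start, 8 of 46 Cre peaks (17.4%) and 11 of 49 GFP peaks (22.4%) had their summit within 1 kb of it, against 27.8% and 28.4%. The greater length of receptor genes (median 48409 bp against 17169 bp) was not allowed for in these shares. Genes with many peaks, such as Rarg and Thra, weigh most in them. No test of these shares was made.

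**Figure D4:**
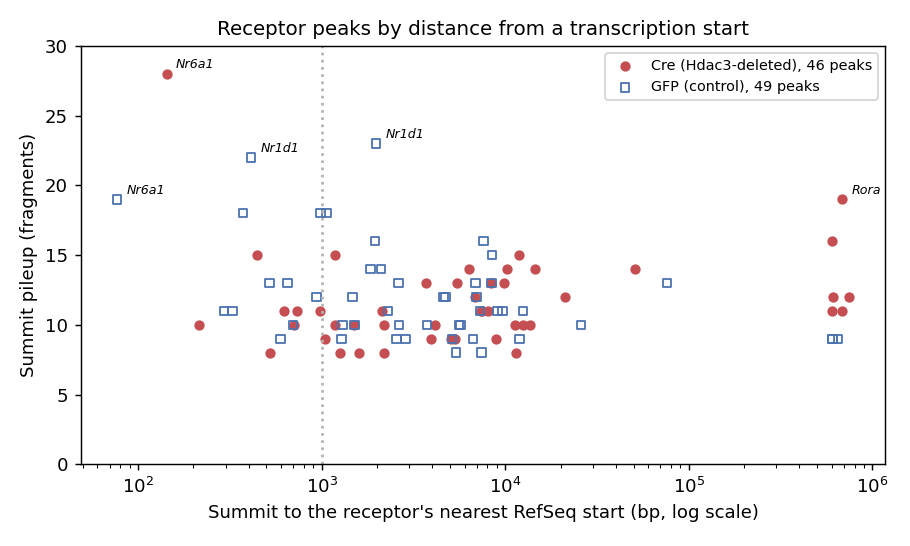
Fragments at the summit against the distance in bp (log axis) to the nearest RefSeq start of the receptor, for 46 Cre peaks (filled circles) and 49 GFP peaks (open squares). The dotted line marks 1 kb. The highest points are the Cre peak of Nr6a1 (28 fragments) and the GFP peaks of Nr1d1 (23 and 22 fragments), and the group at the far right is Rora.

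The genes that receptors work with were counted in the same way, in lists put together with earlier results of these data known, and none of their shares was tested. Of 9 corepressor genes, 5 had a Cre peak and 5 a GFP peak (55.6% each), against 26.0% of all genes in each list. Peaks in both lists were found at 4 (44.4%), against 19.7% of all genes. Cover was longer in the Cre library at 1 of the 9 (11.1%), against 15.9% of all genes, and in the GFP library at 5 (55.6%), against 16.4%. Ncor1, encoding NCoR, had gene-end peaks in both lists. Tbl1x and Tbl1xr1, subunits of the NCoR and SMRT complexes, had them in the GFP list alone, and Cops2, a corepressor of the thyroid hormone receptor, in the Cre list alone. Of 13 coactivator genes, 7 had a Cre peak and 7 a GFP peak (53.8% each), against 26.0%, and 6 had both (46.2%), against 19.7%. Longer cover was found at 4 in the Cre library (30.8%), against 15.9%, and at 4 in the GFP library (30.8%), against 16.4%. Ncoa4, Ep300 and Med1 had gene-end peaks in both lists, and Carm1, an arginine methyltransferase, in the Cre list alone. The Cre and GFP gene-end peaks overlapped at Med1 but not at Ncoa4 or Ep300.

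Among 24 genes that make, carry or break down ligands, 8 had a Cre peak and 8 a GFP peak (33.3% each), near the 26.0% of all genes. Of these, 7 had both. Dhrs3, a retinal reductase, had 16 Cre and 15 GFP peaks over 4292 and 4469 bp, with gene-end peaks in both lists, as had Srd5a1, a steroid reductase. Stra6, the retinol transporter, had a gene-end peak in the Cre list alone. Of 12 target genes of the retinoic acid, thyroid hormone and vitamin D receptors, the same 4 were marked in each list (33.3%), also near 26.0%. Besides Dhrs3 and Stra6 these were Klf9, with 3 Cre and 5 GFP peaks and its gene-end peak in the GFP list alone, and Hr, with 3 and 5 peaks and gene-end peaks in both. Of 12 target genes of the PPARs and LXRs, 5 had a Cre peak (41.7%) and 4 a GFP peak (33.3%), against 26.0% in each. Cover was longer in the Cre library at 4 (33.3%), against 15.9% of all genes, and in the GFP library at 1 (8.33%), against 16.4%. Scd1, a fatty acid desaturase, had its gene-end peak in the Cre list alone. Among 9 glucocorticoid target genes the same 6 were marked in each list (66.7%), against 26.0% of all genes. Gene-end peaks were at Dusp1 in the Cre list alone, at Klf9 in the GFP list alone and at Ddit4 and Cebpd in both.

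Of 15 clock genes, many of them controlled by the REV-ERB and ROR proteins, 12 had a Cre peak (80.0%) and 10 a GFP peak (66.7%), against 26.0% of all genes in each list. Cover was longer in the Cre library at 7 (46.7%), against 15.9% of all genes, and in the GFP library at 5 (33.3%), against 16.4%. Npas2, a partner of BMAL1, had 7 Cre and 2 GFP peaks over 1996 and 442 bp, and Nfil3, a repressor under REV-ERB control, had 2 Cre peaks over 841 bp and no GFP peak. Dbp, an activator of the clock output, had 6 Cre and 8 GFP peaks over 1610 and 2684 bp, and Per1 had 1 and 3 over 155 and 639 bp. Gene-end peaks were in both lists at Dbp, Bhlhe40 and Bhlhe41 and in the Cre list alone at Per3. At Bhlhe40 they stood at opposite ends of the gene, the Cre peak at the lower and the GFP peak at the upper end. The BMAL1 gene itself, Clock and Hlf had no peak.

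Markers of cartilage and of other cells were read beside the cell type label. All 10 chondrocyte markers examined, among them Col2a1, Acan and Sox9, had peaks in both libraries. Of the markers of other cells, Sp7 of osteoblasts had 2 Cre and 3 GFP peaks and Cd68 of macrophages had 3 GFP peaks and no Cre peak. Neither gene had a gene-end peak. All 3 GFP peaks counted with Cd68, a short gene, lay in its flanks, more than 1 kb outside it. The other 3 osteoblast and 3 macrophage markers and all markers of muscle, fibroblasts and tendon, endothelium, fat and red blood cells had none.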

How the data were processed

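Per the submitters' processing notes, bcl2fastq 1.8.4, BWA, Picard and SICER were used with the mouse build mm10. The deposited peak lists, 1 for each library, carry the name and column order of MACS2 output; the labels name no MACS2 version, setting or control library, and the input libraries were not analysed here. The deposited lists give a fold enrichment (a ratio at the summit, with 1 added to both terms), −log10 p-values and q-values, and a score equal to 10 times the −log10 q-value, cut to a whole number, in 100% of rows. These are the authors' values and rank peaks within their own list only.

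Summit pileups were solved from fold and p-value with a Poisson upper tail; 100% of peaks gave a whole number within 0.001. The commonest expected pileup, a measure of relative depth, was 1.01 (Cre) and 0.949 (GFP), with a ratio of 1.06; the sources used here give no read totals. Pileups had a range of 7 to 63 fragments (Cre) and 7 to 58 (GFP), so single peaks have wide counting error. The calculation was tested on data simulated with the same formula, so that test checks the arithmetic only.

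Positions are 1-based. A peak near 2 receptors was counted once in totals. A gene-end peak lay within 1 kb of either annotated end; starts and strands came from the RefSeq promoter table. Shares carry exact Clopper-Pearson 95% intervals, which cover counting error only, and no test was run between 2 unreplicated libraries. The members and lists were chosen with earlier results of these data known. Every receptor with a peak is named, and from other lists the genes with a gene-end peak in 1 list and up to 3 with one in both, except 1 that is not reported here; genes named for their cover alone were chosen after their values were seen. Python 3.11.15, pandas 2.3.3 and scipy 1.17.1 were used.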

Additional observations from a re-analysis of the deposited data

How the results depend on the processing

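Of 92 values computed under other settings, 83 stayed within the 95% interval of the reported share or within 1.5 times the reported count, and 9 did not. Covered length has no counting interval of its own, so its Cre share was held to that of the peak numbers and to its side of 50%. With a gene-end window of 2.5 kb, 12 receptors had a gene-end peak in the Cre list, 4 in the Cre list alone and 1 in the GFP list alone, against 7, 1 and 2. Among peaks whose −log10 q-value reached 5, 1 receptor had one in the GFP list alone. With an overlap of at least 50% of both peaks, 20.8% of Cre and 19.0% of GFP receptor peaks were shared, and counting any other-list peak at up to 1 kb, 62.3% and 62.1%, against 35.8% and 32.8%. These settings change the definition of a gene end, a peak or a shared peak. Gene body alone, 50 kb flanks, nearest-gene assignment and leaving out Rarg moved none of the values that far, nor did leaving out Thra and Nr1d1, or Rora, settings chosen after seeing the data. The Cre share of covered length ran from 40.8% (nearest gene only) to 55.4% (without Thra, Nr1d1 and Rarg, also chosen after seeing the data), past an even split. These 3 genes had the largest differences toward GFP, which fixes the direction of that move. No paired analysis was possible because each condition has 1 library. Summits of 7 to 28 fragments limit what a single peak can show, and a region missing from a list can lie just under the caller's threshold.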

Other observations

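The promoter peak of Nr6a1 was narrow for its height. It was 163 bp wide in the Cre library and 150 bp in the GFP library, whereas peaks with at least 19 fragments had median widths of 264.5 bp (Cre) and 327 bp (GFP). Of these strong peaks 127 of 964 (13.2%) in the Cre list and 34 of 929 (3.66%) in the GFP list were as narrow.

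Receptor promoters held the AGGTCA half-site about as often as others, in 12 of 63 RefSeq windows (19.0%) against 16.3% of all windows. The share of C and G in the receptor windows had a median of 58.7%, against 52.7% over all windows.

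Peaks of the smallest width in a list, 147 bp for Cre and 144 bp for GFP, made up 11 of 53 Cre receptor peaks (20.8%) and 7 of 58 GFP receptor peaks (12.1%), against 17.8% and 16.9% of the whole lists.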
